A study of Mus musculus and Homo sapiens with 7 samples.

Results

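The library of the pooled CRISPR screen in this series held 10021 guide RNAs. Of these, 235 had a mean log2 count at least 1 higher in dead cells in galactose than in living cells in glucose medium. They were chosen by their readout: an average of 50 or more normalised counts in the living libraries, which 6433 guides reached, and a mean log2(normalised count + 1) over the dead libraries at least 1 higher than over the living ones. The change between dead and living libraries was thus fixed by the choice. It is given below as a description, and nothing is read from fits of that same contrast. Of the 235 members, 215 were aimed at 194 genes, 12 were safe-targeting guides, which cut outside genes, and 8 were non-targeting guides, which have no matching site.

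The screen was made in B16-F10, a mouse melanoma line, in cells sorted for stable Cas9 and a fluorescent protein, which then received the guides and were kept in puromycin at 2 µg/mL for 7 days. Dead cells were taken after 48 h in galactose medium (3 libraries, labelled Die) and living cells after 48 h in complete, glucose medium (2 libraries, labelled control), and guides were amplified from 5 µg of genomic DNA. Medium and cell state differ together between the groups and cannot be told apart. The deposited table gives the libraries of a group side by side without replicate numbers, so they are called dead a, b and c and living a and b by their place there.

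A guide in a pooled screen is an inherited tag. Cas9 cuts the gene that the guide matches, the guide cassette stays in the genome, and its count follows all descendants of the cells that took it up. Loss of a gene that cells need shows as a shift shared by several guides of that gene, whereas a shift of a lone guide, or of a guide with no gene target, is also what unequal growth or sampling of a few founder cells gives. Galactose feeds glycolysis slowly, so cells grown in it depend more on mitochondrial respiration. Guides are named below by gene and by their number within the gene's set. Guide sequences were not analysed here. Clonal growth, sampling of few cells and effects of the gene were not tested against each other.

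The dead libraries held 14722843, 13275778 and 15591454 recovered reads (a, b and c) and the living libraries 6801049 and 8492138 (a and b). Dead library a stood apart from dead b and c. Over the 6433 guides, the interquartile range of the log2 difference was 1.01 between dead a and b and 0.95 between dead a and c, but 0.62 and 0.65 between dead a and living a and b. It was 0.81 between dead b and c, 0.97 to 1.05 between either of these and a living library, and 0.39 between the living libraries. By this measure dead a lay nearer to the living libraries than to the other dead ones. Nothing in the labels says whether the libraries came from separate cultures.

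The members took a larger share of every dead library than of either living one, and the share differed among the dead libraries themselves. The rule chose them on these same values, so a larger mean share in dead cells was built in, and nothing is read from it. They made up 2.79% of reads in dead library a (95% Wilson interval 2.79 to 2.80), 5.71% in b (5.70 to 5.72) and 5.67% in c (5.65 to 5.68), against 1.98% (1.97 to 1.99) and 1.93% (1.92 to 1.94) in living libraries a and b. The means were 4.72% ± 1.67 (SD, n = 3) in dead cells and 1.95% ± 0.0387 (SD, n = 2) in living cells. These intervals cover counting error only. The median member had 377, 908 and 839 normalised counts in dead a, b and c, against 273 and 298 in living a and b. The median guide over the floor that was no member stayed between 822 and 864 in dead libraries and between 887 and 890 in living ones. The members were thus rarer than the other guides in living cells, and in dead b their median passed that of the others.

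Guides with no gene to lose were also among the members. The rule took 3.65% of all guides over the floor. It took 215 of 5954 gene-targeting guides (3.61%), 12 of 229 safe-targeting guides (5.24%) and 8 of 250 non-targeting guides (3.2%). The median change of the members was 1.23 log2 units for gene-targeting, 1.17 for safe-targeting and 1.28 for non-targeting guides, and the largest was 2.78, 2.15 and 2.01. Their median gains over the living mean in dead a, b and c were also alike: 0.58, 1.68 and 1.53 for gene-targeting members, 0.55, 1.61 and 1.48 for safe-targeting ones, and 0.61, 1.73 and 1.59 for non-targeting ones. In all 8 non-targeting members, 8 of 12 safe-targeting ones and 160 of 215 gene-targeting ones, every dead library lay above both living libraries. Over all guides past the floor that share was 15.7%. The rule chose members of every kind on these same values, so changes of at least 1 and a high share were built in. Nothing is read from these shares or from the likeness of the kinds.

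Some of these control guides were abundant. Safe-targeting guide 386 had 7665, 17930 and 13379 normalised counts in dead a, b and c, against 5372 and 5097 in living a and b, a change of 1.23. Its 3 dead values lay above both living ones, with b highest. Non-targeting guide 458 had 2273, 4343 and 4864 in dead cells, against 1520 and 1578 in living cells (1.23). Non-targeting guide 544 had 911, 2724 and 2018 in dead cells, against 607 and 704 in living cells (1.39), and safe-targeting guide 571 had 956, 2481 and 2051, against 607 and 699 (1.38). In each of these guides dead a lay above the living pair but nearer to it than to b or c. Safe-targeting guide 471 had another order, with 1332, 1529 and 1072 in dead cells, against 386 and 523 in living cells (1.53), so that the dead libraries were close together. The largest change in each control class rested on a rare guide with discordant living libraries. Safe-targeting guide 567 had 60.1, 90.6 and 114 in dead cells, against 107 and 2.497 in living cells (2.15), and non-targeting guide 585 had 116, 267 and 152, against 87.9 and 18.7 (2.01). For guide 567 only dead c exceeded living a, and without living b its change was −0.32.

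Among the members, whose gains in a, b and c were averaged by the rule, the gain was smallest in a. Relative to the living mean, the median member was higher by 0.58 log2 units in dead a, by 1.68 in b and by 1.53 in c. The interquartile ranges ran from 0.34 to 1.03 in a, from 1.27 to 2.08 in b and from 1.28 to 1.88 in c. A gain above 0 was seen for 215 members in a, 235 in b and 233 in c, where 48.3%, 46.5% and 47.8% of all guides over the floor had one. A gain of at least 1 was seen for 61 members in a, 214 in b and 204 in c, beside 2.19%, 9.76% and 8.36% of all guides over the floor. Since the rule averages these same 3 values, a high share in b and c was built in, and nothing is read from these shares alone.

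The commonest pattern was a gain of at least 1 in b and c with less in a, in 151 members. All 3 libraries passed 1 in 34 members, a and b alone in 16, b alone in 13, c alone in 10, a and c alone in 9 and a alone in 2. Dead a was the lowest dead library for 186 of 235 members, beside 36.4% of all guides over the floor, and it was the highest for 12. Over all guides past the floor the interquartile range of the gain was 0.60 in a, 1.00 in b and 0.96 in c. A choice on the mean of 3 gains tends to leave the library of narrowest spread lowest, so nothing is read from this count. In 39 members dead a lay within the range of the living pair, in 10 below it, and in 186 above it. The counting error of a member's gain had a median of 0.099 log2 units in a, 0.083 in b and 0.085 in c, with a highest value of 0.30, if amplified reads are taken as independent.

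To read a gain in libraries that had no part in the choice, the rule was applied with 1 dead and 1 living library held out, and the change was read between the held-out pair. This gave 6 pairs, each of 1 library against 1, with no test. When guides were chosen with dead b and c against living a, 468 passed, and in held-out dead a over living b their median was 0.22, against −0.02 for all 6423 guides over the floor. Of the 468, 44 (9.40%) were at least 1 higher, beside 3.88% of all. When chosen against living b, 472 passed, with a median of 0.21 in dead a over living a, against −0.02 for all, and 35 (7.42%) at least 1 higher, beside 2.87%. Of the 468, 63.0% were above 0, beside 48.5% of all, and of the 472, 64.2% were, beside 47.7%. Guides chosen on b and c were thus slightly shifted upward in a.

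Dead libraries b and c predicted each other more closely, in choices that also used dead a. For held-out dead b, guides chosen with a and c had medians of 1.24 over living b (158 guides) and 1.09 over living a (210 guides). Of these, 98 (62.0%) and 110 (52.4%) were at least 1 higher, beside 10.9% and 10.4% of all guides over the floor. For held-out dead c, guides chosen with a and b had medians of 0.92 (199 guides) and 0.84 (210 guides), with 97 (48.7%) and 94 (44.8%) at least 1 higher, beside 10.2% and 9.17%. In the 2 pairs with dead a held out, at most 9.40% of chosen guides were at least 1 higher, and in the other 4 pairs at least 44.8% were. With guides of at least 500 normalised counts in the living library used for the choice, a floor added after these values were seen, the medians over living b and a were 0.37 and 0.31 in held-out a, 1.33 and 1.29 in b and 1.52 and 1.47 in c. In b, 40 of 56 and 54 of 76 such guides were at least 1 higher, beside 5.78% and 5.31% of all guides over that floor. In c, 34 of 45 and 42 of 59 were, beside 6.65% and 6.28%. In a, 152 of 192 and 169 of 205 such guides were above 0, beside 53.3% and 52.8% of all guides over that floor. At least 1 higher in a were 8 of each, beside 0.643% and 0.445% of all guides over that floor. Across all 6433 guides the gains had Spearman correlations of 0.55 between b and c, 0.27 between a and b and 0.31 between a and c. These are values across guides that share the living mean, not across replicates.

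Membership was commonest among rare guides. It included 64 of 552 guides (11.6%) with a living mean of 50 to under 100, 39 of 698 (5.59%) from 100, 46 of 1134 (4.06%) from 200, 35 of 1089 (3.21%) from 500, 21 of 1211 (1.73%) from 1000 and 30 of 1749 (1.72%) from 2000 upward. Guides with the opposite change, at least 1 lower in dead cells, numbered 601 and were more concentrated in the rare classes, with 222 (40.2%) in the lowest and 7 (0.400%) in the highest. Among guides with a living mean of at least 1000, 51 were members and 26 were lower by as much. The 2 living libraries were themselves at least 1 log2 unit apart for 44 members, or 18.7%, beside 5.47% of all guides over the floor. Of these, 31 were in the lowest class and 12 in the next. A low value in 1 living library helps a guide meet the rule, so for these members the change depends on which living library is used.

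The abundance classes also differed in how far dead a took part. In the lowest class the median gain was 1.05 in a, 1.93 in b and 1.23 in c, and 34 of 64 members were at least 1 higher in a. From 200 upward the median gain in a was between 0.41 and 0.52 in every class, while b lay between 1.37 and 1.68 and c between 1.52 and 1.67. For the 51 members with a living mean of at least 1000, the gain ran from 0.06 to 1.63 in a, from 0.75 to 3.63 in b and from 1.12 to 2.96 in c. All 51 were above 0 in a, and 50 had every dead library above both living ones, beside 21.4% of all 2960 guides of that abundance. The exception was guide 9 of Meig1, a gene needed for sperm formation, with 5489 normalised counts in dead a against 5507 in living a. Dead a was the lowest dead library in 48 of the 51. These counts come from values that the rule used, and nothing is read from them alone.

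The most abundant members followed this order. Guide 3 of 9130401M01Rik had 17560, 31081 and 29119 normalised counts in dead a, b and c, against 10338 and 11094 in living a and b, a change of 1.23. Guide 5 of Zmynd19 had 10910, 20686 and 23996 in dead cells, against 8163 and 8159 in living cells (1.11). The folds over the living mean were 1.64 and 1.34 in dead a and lay between 2.53 and 2.94 in b and c. Guide 5 of Iqcd, a gene of the ciliary dynein regulatory complex, had 11192, 44153 and 55996 in dead cells, against 7412 and 7016 in living cells (2.07). Its fold over the living mean was 1.55 in a, 6.12 in b and 7.76 in c. Guide 2 of 4933427D14Rik had 8460, 25911 and 28468 in dead cells, against 7164 and 6827 in living cells (1.40). For Zmynd19, Iqcd and 4933427D14Rik, a was nearer to the living libraries than to b or c. Guide 3 of Tsnaxip1, guide 3 of Lrrcc1, a centrosomal protein gene, guide 10 of Morc3, an interferon and chromatin regulator gene, and guide 1 of Meiob, a meiotic recombination gene, changed by 1.24, 1.08, 1.19 and 1.25, with gains in a of 0.52, 0.58, 0.70 and 0.32.

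The exceptions, abundant members with a gain of at least 1 in a, were 5 of the 51, singled out after their values were seen. Guide 8 of Slc31a1, which encodes the copper importer of the plasma membrane, had 7169, 8306 and 6869 normalised counts in dead cells, against 3091 and 3239 in living cells (1.23). Its 3 dead libraries were close together and more than doubled over the living pair. Guide 4 of the zinc finger gene Zfp316 had 12438, 17357 and 11061 in dead cells, against 4850 and 4652 in living cells (1.49). Guide 7 of Dfnb59, the gene of pejvakin, a hearing protein of the gasdermin family, had 2962, 4777 and 4027 in dead cells, against 1123 and 1190 in living cells (1.73). Guide 10 of Atxn7l3b had 8089, 6652 and 10071 in dead cells, against 4072 and 3851 in living cells (1.04), with b lowest of the dead libraries. The last was guide 5 of Nsun4, given below. For Slc31a1 the other 6 tested guides lay between −0.87 and 0.34 with 2 higher, for Zfp316 6 of 8 were higher with a median of 0.41, and for Dfnb59 6 of 7 were higher with a median of 0.40. For these 3 genes the other guides gave gene changes of −0.27 ± 0.18, 0.23 ± 0.23 and 0.53 ± 0.20 (SE, limma adjusted p = 0.629, 0.734 and 0.424), none of which passed.

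Among the 15 largest changes, 10 had a living mean under 100, and 8 had living libraries at least 1 log2 unit apart. Guide 7 of Pih1d2, a gene with the PIH1 domain of dynein assembly factors, had the largest, with 282, 398 and 311 normalised counts in dead cells, against 141 and 14.98 in living cells (2.78). All dead values exceeded both living ones, which rested on 90 and 12 recovered reads. Guide 2 of Tex19.2, a germline and placental gene, had 1217, 4148 and 5513 in dead cells, against 469 and 452 in living cells (2.72). Guide 3 of Spag17, a gene of the central apparatus of motile cilia, had 223, 786 and 376 in dead cells, against 50.2 and 89.9 in living cells (2.57). Guide 2 of Desi2, a desumoylating enzyme gene, had 524, 1662 and 1437 in dead cells, against 180 and 211 in living cells (2.46). For Tex19.2 and Desi2 the living libraries were close and dead a stood between them and b and c. Among the rest of the 15 were Zswim6 guide 10 (2.19), Chmp4c guide 6 (2.13), 1700022I11Rik guide 6 (2.12), Zfp931 guide 3 (2.09), Fam207a guide 2 (2.07) and Fam89a guide 6 (1.91). Gpcpd1 guide 9, with 47.9, 114 and 73.6 in dead cells, against 110 and 2.497 in living cells (1.93), rested on 2 reads in living b, and its change was −0.57 without that library. In 14 of the 15, dead a was the lowest dead library, a count that also rests on values the rule used. Most members changed far less: 48 of 235 reached 1.5, and 13 reached 2.

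The guides with the widest gap between a and the other dead libraries were below the living mean in a. Guide 10 of Bbs7, a subunit gene of the BBSome that carries cargo to cilia, had 199, 1965 and 1830 normalised counts in dead cells, against 391 and 302 in living cells. Dead a lay below both living libraries and the other dead ones far above. Bend3 guide 3 had 55.5, 659 and 299, against 97.3 and 94.9 in living cells. Guide 1 of Ensa, an inhibitor of PP2A in mitosis, had 32.0, 213 and 226, against 29.8 and 81.1. Pxdc1 guide 8 had 270, 2129 and 1375, against 229 and 327, and guide 2 of Mzt2, a gene of the microtubule nucleating complex, had 72.3, 496 and 386, against 98.8 and 111. For Bend3 and Mzt2, as for Bbs7, dead a was below both living values, and for Ensa and Pxdc1 it lay between them. At the other end, Ccdc101 guide 3 had 348, 154 and 120 in dead cells, against 94.1 and 76.1, and Cytip guide 4 had 514, 242 and 405, against 76.9 and 201. Popdc2 guide 3 had 339, 238 and 200, against 140 and 110. In these 3 guides dead a was the highest library of all 5. Plekhm1 guide 5, also at this end, had 188, 251 and 42.6 in dead cells, against 69.0 and 56.2. Its dead b was highest and its dead c lay below both living values. Fam207a guide 7, the last at this end, is given below and was highest in living a.

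Most genes among the members had a single one. Of the 194 genes, 174 had 1 member, 19 had 2 and 1 had 3. Fam207a had 3, with changes of 2.07, 1.29 and 1.14, but guide 7, the last of them, had 94.3, 68.2 and 27.1 normalised counts in dead cells, against 111 and 4.99 in living cells, and its change was −0.98 without living b. The other 6 tested guides of Fam207a split evenly, 3 higher and 3 lower, between −1.72 and 0.76. Chmp4c, which encodes an ESCRT-III protein of the abscission checkpoint, had a second member in guide 8, with 5219, 17191 and 9080 in dead cells, against 3912 and 3712 in living cells (1.29). Of its other 5 tested guides 4 were higher, with a median of 0.15. Stim1, the calcium sensor gene of the endoplasmic reticulum, had changes of 1.53 and 1.29, with 2 of 5 other guides higher. Slc31a1 had a second, rare member at 1.55. Pih1d2 had 4 of 7 other guides higher (median 0.03), 0610011F06Rik 3 of 7 (−0.24), Zfyve28 1 of 5 (−0.33), Asun, an Integrator subunit gene, 4 of 8 (−0.16) and Stbd1, a glycogen-binding protein gene, 3 of 7 (−0.32). Guide 4 of Stbd1 (1.49) was at −0.90 without living b. In these 5 genes between 1 and 4 of the other tested guides were higher.

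Nsun4, whose product methylates mitochondrial ribosomal RNA and forms a complex with MTERF4 in mitochondrial ribosome assembly, had 20 guides under 2 Ensembl gene identifiers, and both of its members carried ENSMUSG00000028706. Guide 5 had 3805, 15174 and 4208 normalised counts in dead a, b and c, against 1232 and 1221 in living a and b, a change of 2.35. Guide 9 had 573, 3615 and 42.6 in dead cells, against 129 and 207 in living cells (1.45), so dead c lay below both living libraries, and its change was −0.055 without dead b. In dead b, all 8 tested guides of this identifier were above both living libraries, with gains from 0.13 to 4.46 and a median of 1.88. In dead a 4 of the 8 were (median gain 0.10) and in dead c 2 (median −0.35). Of the 7 tested guides under ENSMUSG00000090697, 3 were above both living libraries in dead b, with a median gain of −0.08. The 8 include both members, and the 6 others were all above as well. Of the 863 identifiers with at least 5 tested guides that were no members, 2 had all such guides above both living libraries in dead b. This split by identifier was seen in the values and has no test. With both identifiers together, the 13 tested guides that were no members gave a gene change of −0.02 ± 0.37 (SE, limma adjusted p = 0.984).

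The genes of the members had 1726 other guides in the library that were no members. The rule bears on this set too, since any guide over the floor that was at least 1 higher is a member and so is missing from it, while guides with the opposite change remain. Of the 1726, 353 were at 0 in all libraries, 81 others averaged under 10 in the 5 libraries, and 1292 were compared. Their median change was −0.09, against −0.11 for all 6484 gene-targeting guides that were no members and passed the same floor. Of the 1292, 557 (43.1%) were higher in dead cells, beside 41.7% of the 6484, and 38 (2.94%) were at least 1 higher, beside 3.04%. For the 5192 guides of genes with no member, the median was −0.12 and 41.4% were higher. Library by library the median gains of the 1292 were −0.03, −0.07 and −0.01 in dead a, b and c, against −0.04, −0.10 and −0.04 for the 6484. To keep all gaining guides in, a count made after these values were known took, for each gene-targeting member, every other guide of its gene over the floor, members included. Of 1310 such guides, some counted more than once, 44 (3.36%) were at least 1 higher, beside 3.61% of all gene-targeting guides over the floor. Their median change was −0.06, against −0.08, and 45.3% were higher, against 43.6%.

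The gene fit has the same limit, because it leaves out the members but keeps the guides that were lower by as much, which works against a call higher. With member guides left out, 913 genes kept at least 3 guides, among them 192 of the members' genes. In limma, 0 of these 192 were called higher in dead cells at an adjusted p of 0.05, and 0% of all 913 were. The smallest adjusted p in either direction, 0.245, belonged to genes that were lower. At an unadjusted p under 0.05, 3 of 192 were higher and 14 lower, against 12 and 78 of all 913. The median gene change was −0.18 for the 192 and −0.19 for all, and 56 of 192 (29.2%) were above 0, against 244 of 913 (26.7%). All other tested guides were higher for 3 of the 194 genes, none was for 8, and the remaining 183 were mixed. Over all genes such a count was made by library only. In dead a, b and c, all other tested guides were higher for 3, 0 and 5 of the 192 genes, beside 11, 3 and 11 of all 913. Among the 3 of the 194 genes, also singled out after their values were seen, was Grcc10 with 4 guides. Its gene change was 0.15 ± 0.20 (SE, limma adjusted p = 0.846). Zfp931 was another, with 2 guides, too few for the fit. On the opposite side, the 6 other guides of Ensa were all lower, with a gene change of −1.51 ± 0.31 (adjusted p = 0.251).

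The members were spread over the functional lists at low numbers. Of the cilium and axoneme list, 3 of 25 guides over the floor were members, those of Spag17 and Iqcd above and guide 5 of Ift46, a gene of intraflagellar transport (1.19). That list covered 5 genes, and not Bbs7 or Pih1d2, whose members are given above. Of the zinc finger Zfp genes 2 of 18 were, of the solute carriers 5 of 123, of the SOX transcription factors 2 of 57 and of the uncharacterised Rik and Gm genes 24 of 569, or 4.22%. Guide 9 of Slc2a1, the glucose transporter gene, had 2555, 6039 and 6518 normalised counts in dead cells, against 2079 and 1927 in living cells (1.22), and 2 of its 5 other tested guides were higher. Of the list of mitochondrial RNA and translation genes 2 of 19 guides were members, both of Nsun4. Of the respiration, TCA cycle and superoxide list 0 of 28 were. Sod3, the gene of extracellular superoxide dismutase, was not on that list and had members in guides 10 and 5 (1.10 and 1.08). There were no members among growth suppressors and checkpoint genes (0 of 17) or melanocyte and melanoma genes (0 of 4). Single members came from the cell death list (1 of 14, Dfnb59), the core transcription, splicing and secretion list (1 of 10, guide 2 of the splicing gene Snrpd1 at 1.07), the autophagy and membrane traffic list (1 of 22, guide 6 of the small GTPase gene Rab39 at 1.11) and the sugar and lactate list (1 of 19, Slc2a1). Against 3.65% of all guides over the floor, counts of this size set no list apart.

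The guide fit and the authors' calls for these guides are given as a description. By limma on all 7248 guides that averaged 10 or more across the 5 libraries, 0 of the 235 members and 0% of all guides passed as higher at an adjusted p of 0.05 (smallest among members 0.299), while 95 members and 263 of all guides had an unadjusted p under 0.05. The SE of a member's change had a median of 0.54, against 0.35 for all guides. In the authors' deposited guide table, 214 of the 235 members had an FDR under 0.05 and were higher in dead cells, as had 22.4% of all guides over the floor. In the authors' deposited gene table, 15 of the first 20 genes for gain among dead cells had a member guide, among them Iqcd at place 2 and Rab39 at 4, and 20 of the 194 genes had a p-value for gain under 0.05, beside 3.35% of all 925 entries. Its FDR for gain was 1 for each of the 194. As the rule used this same contrast, nothing is read from these counts or from the SE of the members.

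The threshold cuts through a continuous range. Just inside it were guide 5 of Bloc1s4, guide 9 of Muc5b and guide 10 of Iws1, each at 1.00 on the log2 scale, and just outside it guides 2 of Spdl1, 1 of Samhd1 and 2 of Supt6, at 1.00 as well when rounded. Samhd1 guide 1 had 653, 1732 and 1904 normalised counts in dead cells, against 672 and 620 in living cells, and Muc5b guide 9 had 220, 644 and 599, against 193 and 248. In both, dead a lay between the living libraries. A further 309 guides changed by at least 1 but lay under the abundance floor.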

How the data were processed

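Guides were counted in 5 screen libraries; the UV-RIP libraries of the series were not used here. The authors' deposited guide table holds normalised counts per guide, with the libraries of a group joined in one cell, beside one normalised signal per group, a log2 fold change, a score, and p-values with FDR. MAGeCK 0.5.9.5 is named in the submitters' processing notes; its role and settings are not given here by any source. The authors' deposited gene table gives log2 fold changes, scores and p-values per gene. Low values in each library were whole multiples of 1 step (100% within 0.1 read), so whole reads were recovered by division. Values carry 5 significant digits, so counts of abundant guides and totals are approximate.

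Changes were taken on log2(normalised count + 1), a scale that understates changes of rare guides. limma 3.58.1 in R 4.3.3 (lmFit and eBayes, 2-sided, Benjamini-Hochberg) was fitted to all guides averaging 10 or more across 5 libraries, and to gene means of at least 3 such guides without members. The rule and the fits were run on simulated data as a check of the code only. There the libraries varied independently and dead a did not stand apart from b and c, so no result here rests on them. Since no label says that libraries came from separate cultures, the p-values rest on a spread that may be technical. The 95% intervals cover counting error only.

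The members, the gene lists and the tests were chosen with earlier results of these data known. The text names the 15 largest changes, the 10 most abundant members, up to 5 of each control class, up to 10 genes with 2 or more members, the 5 widest and narrowest gaps between dead a and b with c, 3 guides on each side of the threshold, and up to 5 members a list. All 215 gene-targeting members matched a RefSeq symbol or synonym (assembly GRCm38.p6, names only), and 22 genes carry an older symbol, kept as in the files. Alternatives were the floor, pseudocount, scaling, median for mean, filters, and leaving out each library. Some results for single genes are not reported here.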

Additional observations from a re-analysis of the deposited data

How the results depend on the processing

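The number of members was 235. It was 163 at equal totals (161 of them among the 235), 323 with the median of the dead libraries (210 among the 235), and between 177 and 467 when 1 library was left out. The highest value came without dead library a, where 226 of the 235 stayed among 467. Without dead b 143 of the 235 stayed, and without dead c 142. A floor of 500, added after the data were seen, left 86. The share of members at least 1 higher in dead a (26.0%) was 15.8% at a floor of 100, 33.4% with the floor on all 5 libraries and 9.30% at a floor of 500, and it ranged from 24.7% to 39.0% without 1 library. The median change of the other guides (−0.09) was −0.23 at equal totals, −0.061 with the median of the dead libraries, −0.021 at a floor of 500, and between −0.12 and −0.052 without 1 library, below 0 throughout. The median in held-out dead a (0.21) was 0.18 at a floor of 20, 0.24 at 100, 0.34 at 500, 0.19 with the floor on all libraries, 0.23 with a pseudocount of 10 and 0.16 at equal totals, and 0.13 to 0.19 when chosen with dead b or dead c alone. The guide fit called 1 guide higher at equal totals, 2 with no filter and 0 to 3 without 1 library. None of these was a member as chosen under the same alternative. The gene fit on other guides called 0 genes higher under every alternative.

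Of 76 named guides, 5 turned below 0 in an alternative. Nsun4 guide 9 ranged from −0.055 without dead b to 3.13 without dead c. Without living b and without living a, safe-targeting guide 567 was at −0.32 and 4.63, Gpcpd1 guide 9 at −0.57 and 4.42, Stbd1 guide 4 at −0.90 and 3.89, and Fam207a guide 7 at −0.98 and 3.25. No paired analysis was possible because the columns carry no replicate numbers. edgeR on recovered reads, listed as an alternative, was not run. The counting error of a member's gain had a median of at most 0.099 log2 units and reached 0.30, and single members had as few as 2 reads in a living library, so depth limits the rare members.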

Other observations

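Some member guides belonged to genes that were on no list. They were picked here after their values were seen, so no count or test of their groups is given. Snrpn and Snrpc were not on the list with splicing genes, nor Sod3 on that with superoxide genes. The counts of those lists do not cover them. Of the spliceosomal RNP genes, guide 5 of Snrpn had 147, 172 and 163 normalised counts in dead a, b and c, against 104 and 28.7 in living a and b (1.53), and guide 7 of Snrpc had 89.0, 180 and 109, against 54.9 and 57.4 (1.09). Of the chromatin genes, guide 3 of Dpy30, a subunit gene of the histone H3K4 methyltransferase complexes, had 1808, 3625 and 3025 in dead cells, against 1036 and 922 in living cells (1.47). Both living values of Dpy30 lay below all 3 dead ones, with dead a the lowest. Of the other tested guides, 4 of 8 were higher for Snrpn, 3 of 8 for Snrpc and 3 of 6 for Dpy30. Without the members, the gene changes were −0.43 ± 0.23, −0.49 ± 0.38 and 0.12 ± 0.30 (SE). Sod3 had 2 members, with 2 of its other 4 tested guides higher and a gene change of 0.05 ± 0.19 without them (SE, limma adjusted p = 0.932).

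Of the 235 members, 61 (26.0%) were at least 1 higher in dead a, and of the 601 guides with the opposite change 314 (52.2%) were at least 1 lower there. In dead b and c, 214 and 204 members were at least 1 higher, and 448 and 334 of the 601 were at least 1 lower. Both sets were chosen on these same values, so nothing is read from these counts. The members had a median living mean of 287 normalised counts and the lower guides of 129. The difference between the shares was not tested.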
